A study of Mus musculus with 12 samples.

Results

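The genes described here are 40 genes that mark neutrophils or serve their killing machinery: granule proteins, abundant cytosolic proteins, surface receptors, subunits of the NADPH oxidase, and a few secreted proteins with a transcription factor of the lineage. They were taken from a fixed list of names and matched by gene symbol to the 54232 gene identifiers counted in each library. All 40 reached the minimum of 15 counts summed over the libraries. The low-count filter of the test kept 38 of them among 18618 genes, and Elane with 86 counts in all and Itgb2l with 18 are given as levels alone. Ltf, Camp, Ngp and Ly6g passed that filter only through the patch libraries, since fewer than the required 3 TD libraries reached its count. Keeping a gene in that way favours higher values under a patch. These 4 are therefore described by their counts, and totals are given without them for the other 34 as well.

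RNA was read from dorsal skin wounds of male mice of strain C57BLKS/J that were homozygous for the db mutation of the leptin receptor, Lepr (db/db), a model of obesity and type 2 diabetes. The sample labels give the age as 12.5 weeks. Every wound was a full-thickness punch of 6 mm harvested on day 10, and all 3 groups carried the same genotype, so no group had a normal copy of Lepr. The TD group (5 libraries) wore a Tegaderm film dressing alone, the strain group (4 libraries) a patch that induces roughly 30% strain, and the no-strain group (3 libraries) a patch that induces none. The labels do not say whether the wounds came from separate animals, so the p-values measure the spread between these samples.

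Neutrophils are short-lived white cells that enter a wound early and kill microbes with stored granule proteins and with the oxidants made by a membrane oxidase. Their azurophil granules are filled at the promyelocyte stage in the marrow, their specific and gelatinase granules later, and most of the matching messenger RNAs are switched off before the cell enters blood. Messenger RNAs for cytokine and chemoattractant receptors stay on in the mature cell. Persistent neutrophils are a known feature of slow-healing diabetic wounds.

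Library totals ran from 20354677 to 25059371 counts, so a floor of 3 counts, which covers counting error only, was worth 0.117 to 0.149 CPM, the count relative to a library total scaled by edgeR's TMM method. Skin markers were present in every library: Krt14 lay between 2149 and 6731 CPM and Col1a1 between 9663 and 19347 CPM. Lists for other cells moved with the groups. The summed level of 12 skeletal muscle genes was 6301 to 15507 CPM in TD, 2920 to 5641 CPM in the strain group and 4244 to 9330 CPM in the no-strain group, and of the 11 tested 7 fell under strain and 2 without it. The 10 monocyte and macrophage genes summed to 1134 to 2575 CPM in TD, 2133 to 2968 CPM under strain and 2163 to 3166 CPM without strain, and 6 wound-activated keratinocyte genes to 2632 to 4053, 3618 to 11076 and 3466 to 11397 CPM. T cell genes rose in 3 of 6 cases in each comparison (median log2 fold changes 1.15 and 1.02), and all 5 erythroid genes fell without strain (median -1.31). No-strain library 3 stood apart in its 8 basal and differentiated keratinocyte genes, which summed to 5595 CPM there and to 9654 to 16970 CPM in the other libraries. The part of these lists in the results was not tested. Among eosinophil genes, Epx and Prg2 were nearly undetected, with 6 and 71 counts over all 12 libraries. The summed level of 4 eosinophil genes was 17.4 to 30.5 CPM in TD. It was 7.45 to 14.3 CPM under strain and 12.7 to 13.9 CPM without strain. Of the 3 tested, 1 fell in each comparison, where the lowest log2 fold changes were -1.74 and -1.26. The part of this list in the results was also not tested.

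The share of all counts that fell on the 40 genes was higher in most patch libraries than in TD. It was 0.304%, 0.185%, 0.162%, 0.149% and 0.159% in TD libraries 1 to 5, 1.17%, 0.918%, 0.251% and 0.297% in strain libraries 1 to 4, and 0.728%, 0.397% and 0.733% in no-strain libraries 1 to 3. Strain libraries 3 and 4 lay below TD library 1, and the other 5 patch libraries lay above all of TD. S100a8 and S100a9, which keratinocytes also make, held 70.9% of these counts in strain library 1 and 20.4% in TD library 3, the extremes. The other 38 genes took 0.111% to 0.149% of all counts in TD, 0.1875% to 0.3725% under strain and 0.242% to 0.391% without strain, with no patch library down to TD. In RNA from whole tissue, more neutrophils and more RNA per neutrophil cannot be told apart.

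**Figure D1:**
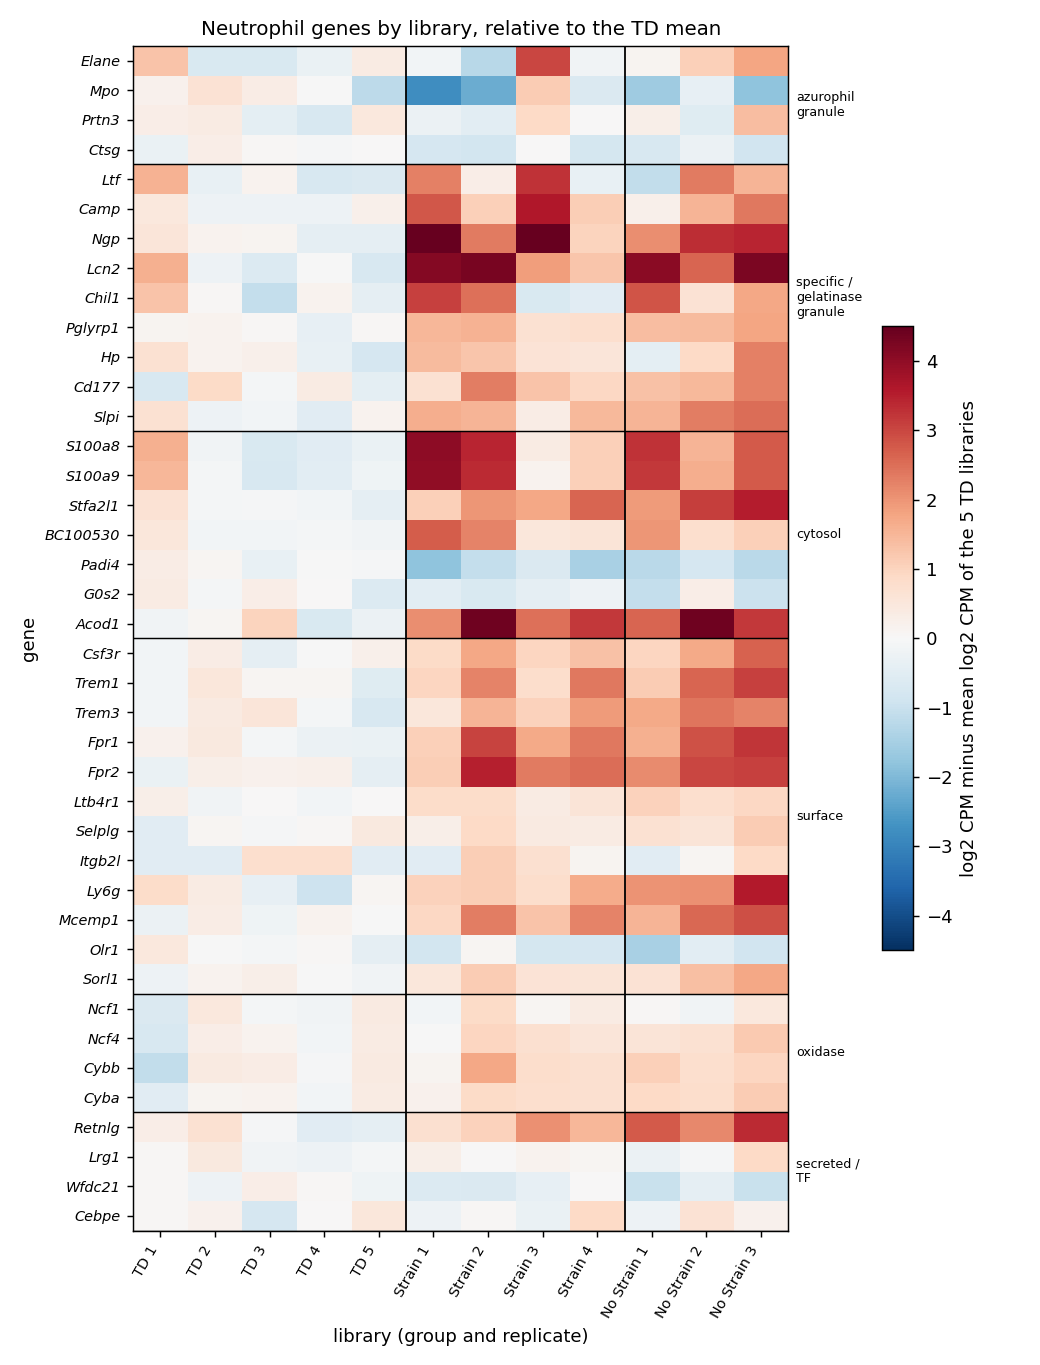
Heat map of the 40 neutrophil genes (rows, grouped by role) in the 12 libraries (columns), where colour is the log2 CPM (prior count 2) minus the mean log2 CPM of the 5 TD libraries, and values past the ends of the scale take the end colour. Lcn2, S100a8 and S100a9 are reddest in strain libraries 1 and 2 and no-strain libraries 1 and 3, Csf3r, Fpr1, Fpr2 and Mcemp1 are red in all 7 patch libraries, and Mpo and Padi4 are blue in most of them.

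Against TD, receptor genes such as Csf3r and Fpr2, the stefin Stfa2l1 and granule genes such as Lcn2 and Pglyrp1 rose under both kinds of patch. The calgranulins S100a8 and S100a9 rose under strain and had like fold changes that did not pass without it, and Padi4 fell under both. None of the 3 azurophil granule genes tested passed as higher. Of the 38 genes tested, 21 rose and 1 fell under strain by edgeR's quasi-likelihood test with Benjamini-Hochberg adjustment over all genes, and 16 did not pass. Over all 18618 genes, 6.2% rose and 6.41% fell in the same comparison. Without strain, 19 rose, 3 fell and 16 did not pass, against 9.35% and 8.4% of all genes. The median log2 fold change of the 38 genes was 1.25 under strain and 1.45 without it, beside 0.018 and 0.0045 over all genes tested. Without the 4 genes kept only through the patches, 19 of 34 rose and 1 fell under strain, and 17 rose and 3 fell without strain, with medians of 1.06 and 1.32. Both comparisons use the same 5 TD libraries. With the mean of both patch groups set against TD, 24 of the 38 rose and 4 fell, or 21 and 4 of the 34, beside 12.4% and 12.1% of all genes.

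Groups were also set side by side library by library. All 4 strain libraries lay above all 5 TD libraries for 14 of the 38 genes and below them for 1, where 7.47% and 7.15% of all genes did so. The 3 no-strain libraries lay above TD for 23 and below it for 3, against 14.3% and 12.5% of all genes. Among the 34 these counts were 12 and 1 for strain and 21 and 3 for no strain. All 7 patch libraries lay above TD for 13 genes, namely Ngp, Pglyrp1, Stfa2l1, BC100530, Acod1, Csf3r, Trem1, Fpr1, Fpr2, Ltb4r1, Mcemp1, Sorl1 and Retnlg, and below it for Padi4, where 5.73% and 5.27% of all genes did so. Ngp was in the test only through the patch libraries, and among the 34 there were 12 above and 1 below. The lowest of the 12 libraries was a TD library for 31 of the 40 genes, and the highest was no-strain library 3 for 16, strain library 2 for 7 and strain library 3 for 5. No-strain library 3 is the one low in keratinocyte genes.

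The count under strain depended on single libraries: it was 10 without TD library 4, 10 without strain library 2 and 12 without TD library 3. With the mean of the skeletal muscle list or of the monocyte and macrophage list as a covariate, 0 of the 38 genes passed for strain against TD, where 1 and 80 of all genes passed. The fold changes moved less than the calls: the 20 genes called for strain among the 34 kept their sign with either list, and 19 with the muscle list and 16 with the macrophage list kept a log2 fold change of at least 1/1.5 of the reported one. Fpr2 was 3.02 with the muscle list and 1.76 with the macrophage list, Acod1 3.15 and 2.61, and Padi4 -1.09 and -1.19. Those that shrank further with the macrophage list were Csf3r (from 1.24 to 0.72), Sorl1 (0.72 to 0.39), Cyba (0.63 to 0.18) and Cd177 (1.38 to 0.36). With the muscle list it was Slpi (1.27 to 0.80).

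**Figure D2:**
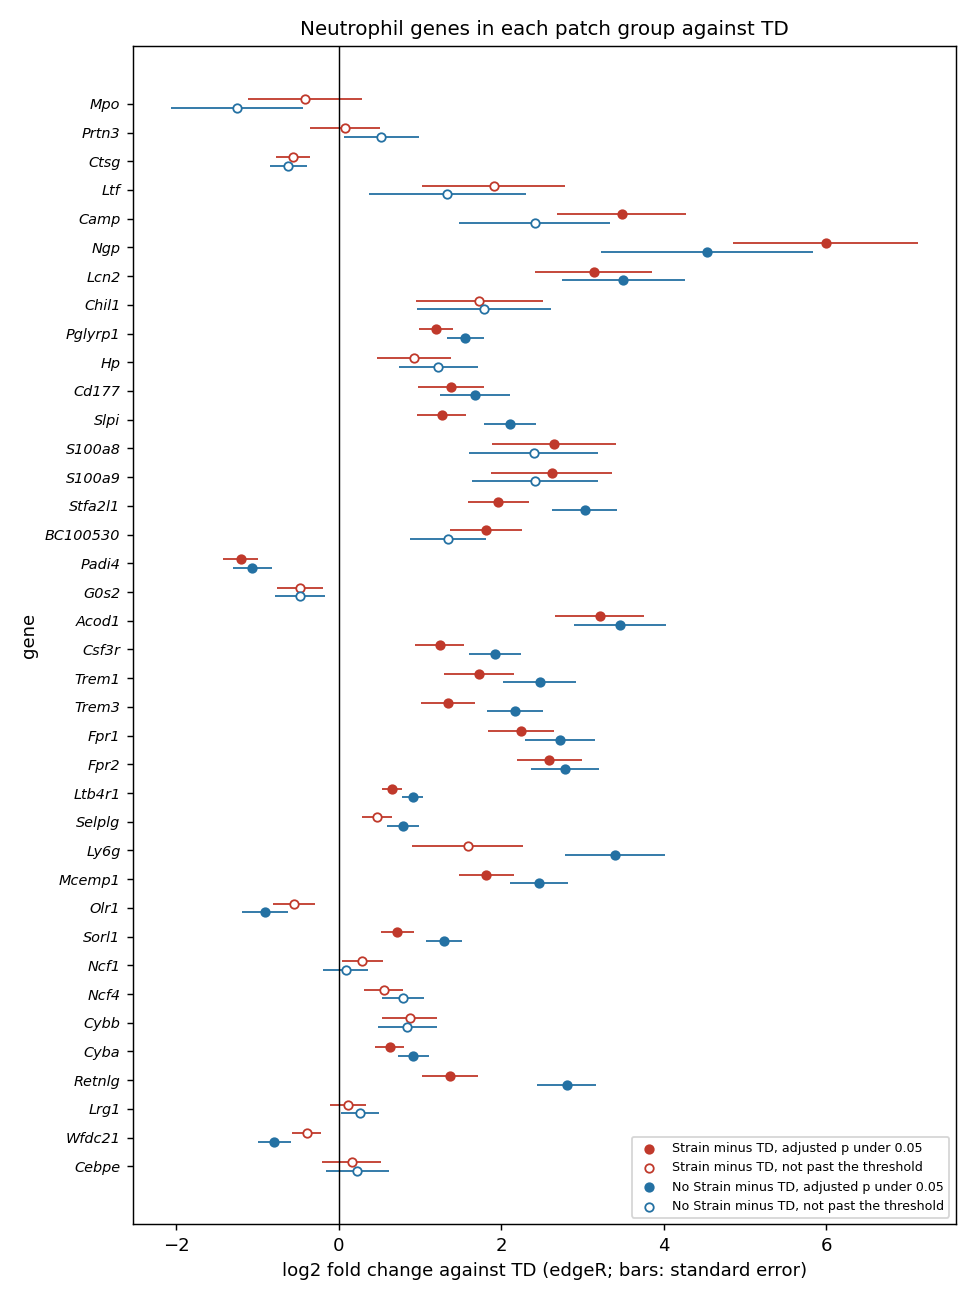
Log2 fold change against TD (horizontal axis) of the 38 tested neutrophil genes under strain (red) and no strain (blue), with bars of 1 standard error and filled points for an adjusted p under 0.05. Ngp, with 4 counts in TD, lies farthest to the right and is, like Camp, Ltf and Ly6g, in the test only through the patch libraries, Csf3r lies at 1.24 and 1.93 and Fpr2 at 2.59 and 2.78, and Padi4 lies to the left in both groups.

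C/EBP factors and PU.1 are the textbook regulators of granulocyte genes, and promoters were read from RefSeq (build GRCm38.p6, 250 bases before the start site and 50 from it). A promoter entry was found for 33 of the 40 genes. The C/EBP core TTGCNNAA or TTACNNAA, on either strand, stood in 12 of the 33 (36.4%) and in 20.8% of the 27025 genes searched. That search did not cover every chromosome. The PU.1 motif GAGGAAG, on either strand, stood in 11 of the 33 (33.3%) and in 15.4% of the genes searched. A match is a description of letters, not a site. The 4 promoters below are those of a calgranulin, a receptor, a late granule protein and a secreted siderophore-binding protein, with matches in capitals. That of S100a8 is chr3:90668821-90669120 on the plus strand and holds the PU.1 motif in reverse from base -171 of the start. That of Csf3r is chr4:126024409-126024708, plus strand, with the PU.1 motif from base -86. That of Ngp is chr9:110419558-110419857, plus strand, with the C/EBP core at base -138 and in reverse at -11. That of Lcn2 is chr2:32387690-32387989, minus strand, with the C/EBP core at -216 and the PU.1 motif in reverse at -21.
S100a8: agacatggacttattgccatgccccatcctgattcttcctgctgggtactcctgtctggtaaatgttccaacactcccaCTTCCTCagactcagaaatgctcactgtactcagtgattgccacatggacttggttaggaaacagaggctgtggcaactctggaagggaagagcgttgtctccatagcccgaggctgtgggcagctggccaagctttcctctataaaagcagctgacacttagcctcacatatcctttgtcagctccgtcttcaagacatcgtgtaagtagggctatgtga
Csf3r: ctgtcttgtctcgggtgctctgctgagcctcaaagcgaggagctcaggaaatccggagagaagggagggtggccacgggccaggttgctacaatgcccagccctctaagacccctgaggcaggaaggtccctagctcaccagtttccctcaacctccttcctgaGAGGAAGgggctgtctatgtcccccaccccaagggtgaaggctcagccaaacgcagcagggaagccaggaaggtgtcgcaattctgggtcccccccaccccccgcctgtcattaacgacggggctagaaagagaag
Ngp: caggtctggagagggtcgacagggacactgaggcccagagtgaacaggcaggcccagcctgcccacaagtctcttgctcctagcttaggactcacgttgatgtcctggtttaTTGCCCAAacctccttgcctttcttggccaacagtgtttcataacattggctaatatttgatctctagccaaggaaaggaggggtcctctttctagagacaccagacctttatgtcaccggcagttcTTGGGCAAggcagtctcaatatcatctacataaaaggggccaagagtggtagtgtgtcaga
Lcn2: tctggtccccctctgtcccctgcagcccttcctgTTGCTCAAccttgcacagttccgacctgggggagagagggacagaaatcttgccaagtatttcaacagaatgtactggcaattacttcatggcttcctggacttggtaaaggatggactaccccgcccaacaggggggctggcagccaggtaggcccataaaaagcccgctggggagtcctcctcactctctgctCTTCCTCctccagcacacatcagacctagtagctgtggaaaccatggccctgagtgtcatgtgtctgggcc

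The azurophil granule genes encode the proteases and peroxidase of the first granules. None of the 3 tested passed as higher in any comparison, and Elane was too scarce to be tested. The median log2 fold change of the 3 tested was -0.42 under strain and -0.62 without strain. Elane, neutrophil elastase (chromosome 10, 79886247 to 79888215, GRCm38), had 10, 1, 1, 2 and 4 counts in the TD libraries, 2, 0, 40 and 2 under strain and 3, 8 and 13 without strain. Its largest count thus came from strain library 3, and most other libraries were at or near the floor of 3. Mpo, myeloperoxidase (chromosome 11, 87793581 to 87804413), stood at 3.74, 5.22, 4.19, 3.23 and 1.40 CPM in TD, 0.397, 0.630, 7.40 and 2.06 under strain and 1.04, 2.53 and 0.883 without strain. Strain library 3 was again the highest of all 12, and the other 6 patch libraries lay below all TD libraries but TD library 5. The log2 fold change of Mpo was -0.42 ± 0.701 (SE; adjusted p = 0.733) under strain and -1.25 ± 0.815 (adjusted p = 0.312) without strain.

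Ctsg, cathepsin G, a serine protease that mast cells also make (chromosome 14, 56099881 to 56102574), was at 4.40, 6.74, 5.70, 5.21 and 5.57 CPM in TD, 3.18, 3.06, 5.49 and 3.12 under strain and 3.29, 4.505 and 2.97 without strain. All patch libraries but strain library 3 and no-strain library 2 lay below every TD library. Ctsg fell in the mean of both patch groups, by 0.59 on the log2 scale (SE 0.181, adjusted p = 0.0338), and passed in neither group alone (adjusted p = 0.0951 and 0.0832). Of 5 mast cell genes, 0 passed in any comparison at the adjusted threshold. At an unadjusted p under 0.05, 1 passed for strain and 2 for no strain, beside 29.5% and 33.5% of all genes. The summed level of the 5 mast cell genes ran from 231 to 464 CPM in TD, 214 to 382 under strain and 240.4 to 295 without strain. Its part in the Ctsg values was not tested. Prtn3, proteinase 3, a serine protease of the same granules, lay between 0.888 and 4.09 CPM, with groups that overlapped (adjusted p = 0.928 and 0.464).

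Of the 9 specific and gelatinase granule genes, Ltf, Camp and Ngp were kept only through the patches. Of the other 6, 4 rose in each comparison, with median log2 fold changes of 1.32 and 1.73. Pglyrp1, a peptidoglycan-binding antibacterial protein (chromosome 7, 18871331 to 18890459), stood at 2.34, 2.38, 2.19, 1.66 and 2.19 CPM in TD, 6.21, 6.48, 3.47 and 3.64 under strain and 5.76, 5.88 and 7.43 without strain. Every patch library was above every TD library. The log2 fold change was 1.20 ± 0.213 (SE, adjusted p = 0.00869) under strain and 1.56 ± 0.225 (adjusted p = 0.00262) without strain. Slpi, an inhibitor of elastase that epithelia also secrete (chromosome 2, 164354070 to 164389095), was at 43.1, 22.8, 24.4, 18.9 and 29.5 CPM in TD, 83.1, 77.0, 33.9 and 73.0 under strain and 77.4, 131 and 151 without strain. Strain library 3 fell within the TD range and the other 6 patch libraries lay above it. Slpi rose by 1.27 log2 units (SE 0.303, adjusted p = 0.0236) under strain and 2.11 (SE 0.323, adjusted p = 0.00331) without strain.

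Lcn2, lipocalin 2, which binds bacterial siderophores and is also made by keratinocytes, was at 50.4, 14.1, 10.6, 16.2 and 9.95 CPM in TD, 288, 324, 61.1 and 39.5 under strain and 275, 101 and 313 without strain. Strain library 4 lay below TD library 1, and the other 6 patch libraries lay above all of TD. Its log2 fold changes were 3.14 ± 0.717 (SE, adjusted p = 0.0200) and 3.50 ± 0.753 (adjusted p = 0.0115). Ngp, neutrophilic granule protein, and Camp, the cathelicidin precursor, were scarce. Ngp had 4 counts over the 5 TD libraries, 80, 11, 130 and 3 counts under strain and 9, 25 and 25 without strain, above every TD library in all 7. Camp had 8 counts over TD, 19, 5, 44 and 5 under strain and 2, 8 and 15 without strain, where no-strain library 1 lay within the TD range. Strain libraries 1 and 3 thus held most counts of both genes in their group.

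Cd177, a surface and granule glycoprotein of neutrophils, rose by 1.38 log2 units (adjusted p = 0.0481) and 1.68 (adjusted p = 0.0237), from 0.946 to 2.96 CPM in TD to 2.63 to 8.28 across the patches, and the call under strain was lost in 17 of 23 alternatives. Chil1 and Hp did not pass in either comparison. Ltf, lactoferrin, had 60 counts in all in TD and lay between 0.202 and 1.32 CPM in TD and between 0.135 and 4.40 CPM under the patches. Chil1, a chitinase-like protein that macrophages also make, had log2 fold changes of 1.73 and 1.79 with standard errors of 0.782 and 0.828. Hp, haptoglobin, which binds free hemoglobin and is also made by fat cells, had log2 fold changes of 0.93 and 1.22 (adjusted p = 0.199 and 0.103). The 6 adipocyte genes summed to 989 to 2218 CPM in TD and 509 to 1053 CPM under the patches, and 4 and 6 of them fell.

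Of the 7 cytosolic protein genes, 5 rose and 1 fell under strain and 2 rose and 1 fell without strain, with median log2 fold changes of 1.96 and 2.40. The calgranulins were the most abundant genes of all 40 per length in each group, and their rise was uneven between libraries. S100a9 and S100a8 encode the subunits of calprotectin, a metal-binding antimicrobial protein that activated keratinocytes also make. Mean levels per kilobase of exon were 688, 4228 and 3678 CPM per kb for S100a9 in TD, strain and no strain, and 389, 2432 and 2052 for S100a8, followed in TD by Hp at 214 and in the strain group by the stefin BC100530 at 595.

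S100a8 (chromosome 3, 90668978 to 90670035) stood at 673, 199, 138, 157 and 182 CPM in TD, 3634, 2364, 284 and 469.5 under strain and 2124, 639 and 1509 without strain. Strain libraries 1 and 2 were the highest of all, strain libraries 3 and 4 and no-strain library 2 lay below TD library 1, and so both patch groups overlapped TD. Its log2 fold change was 2.65 ± 0.762 (SE, adjusted p = 0.0437) under strain and 2.40 ± 0.793 (adjusted p = 0.0573) without strain. S100a9 (chromosome 3, 90692632 to 90695721) was at 844, 286, 183, 217 and 267 CPM in TD, 4761, 3096, 337 and 633 under strain and 2769, 934 and 2057 without strain. Strain libraries 3 and 4 again lay below TD library 1, while all no-strain libraries lay above TD. Its log2 fold change was 2.62 ± 0.745 (adjusted p = 0.0418) under strain and 2.42 ± 0.776 (adjusted p = 0.0520) without strain. The calls under strain were lost in 16 of 24 alternatives for S100a8 and 15 of 24 for S100a9.

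BC100530, a cysteine protease inhibitor of the stefin A family, ran the same way, at 119 to 186 CPM in TD, 878, 616, 189.9 and 197 under strain and 517, 224 and 277 without strain. It passed under strain (log2 fold change 1.81, adjusted p = 0.0257) and not without it (1.34, adjusted p = 0.0691). The 6 wound-activated keratinocyte genes were high in the same libraries, with summed levels of 11076, 6954, 3642 and 3618 CPM in strain libraries 1 to 4 and 11397, 3466 and 5368 CPM in no-strain libraries 1 to 3. Of these 6, Krt6b passed in each comparison (log2 fold changes 1.35 and 1.41) and 3 passed for the mean of both patch groups. At an unadjusted p under 0.05 there were 4 for strain and 4 for no strain, beside 29.5% and 33.5% of all genes. With the mean of this list as a covariate, S100a8 had log2 fold changes of 0.60 under strain and 0.53 without strain, S100a9 of 0.57 and 0.60, and BC100530 of 0.57 and 0.08. Lcn2 was then at 1.49 and 1.93, against 3.14 and 3.50 as reported. With this covariate, 8 of the 38 genes passed for strain and 16 for no strain. Csf3r (1.37 and 2.07) and Fpr2 (2.90 and 3.13) had fold changes no smaller than without the covariate.

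**Figure D3:**
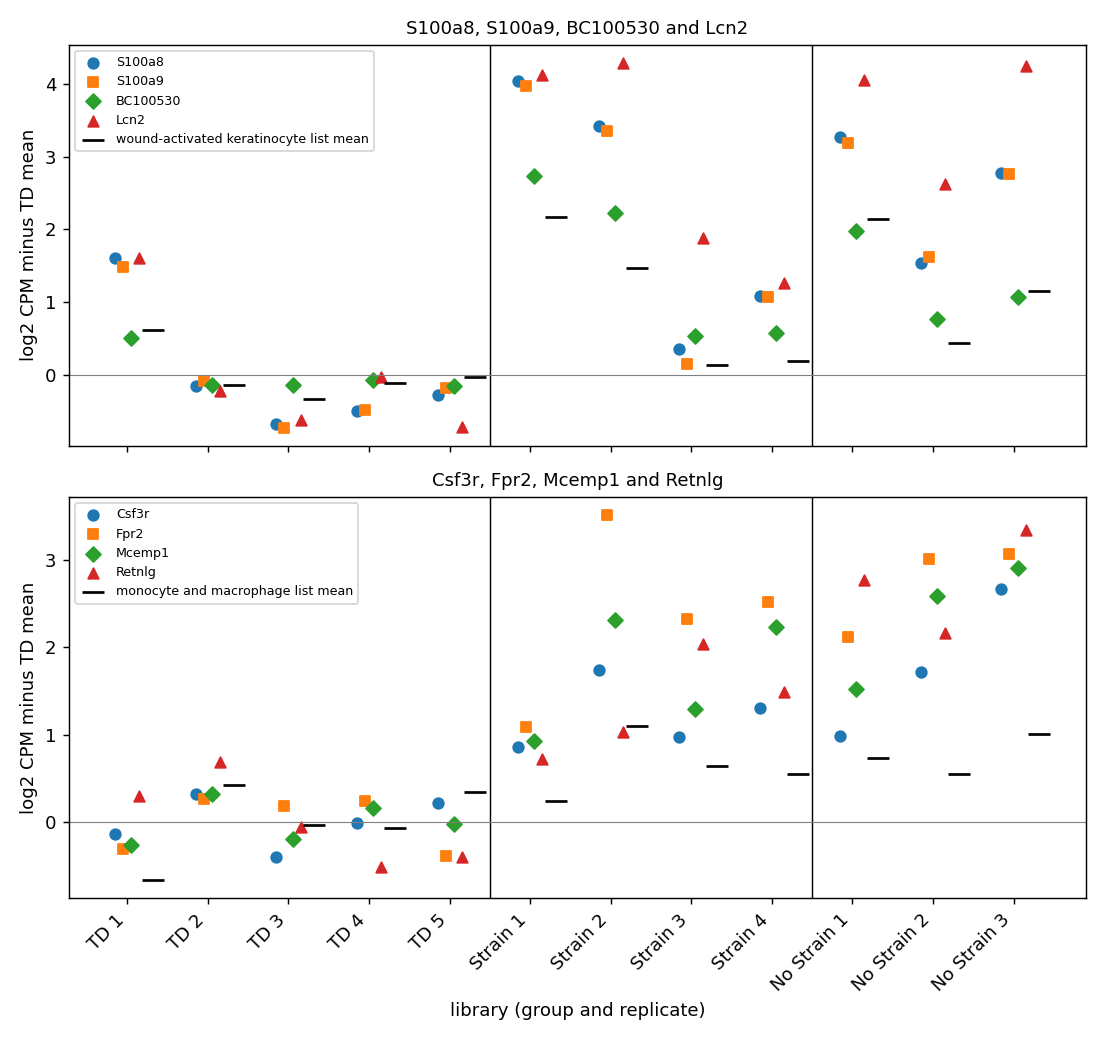
Log2 CPM of single genes in each of the 12 libraries minus their TD mean, with the mean of a cell type list as a black dash. In the upper panel S100a8, S100a9, BC100530 and Lcn2 are, like the wound-activated keratinocyte list, high in strain libraries 1 and 2 (S100a8 4.04 and 3.42), and in strain library 3 S100a8 is at 0.36 while Lcn2 is at 1.89, and in the lower panel Csf3r, Fpr2, Mcemp1 and Retnlg lie above the monocyte and macrophage list in every patch library, except Retnlg in strain library 2.

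Stfa2l1, another stefin (chromosome 16, 36156811 to 36161953), was at 2.63, 1.52, 1.59, 1.49 and 1.23 CPM in TD, 3.58, 6.80, 5.72 and 10.4 under strain and 6.48, 15.0 and 20.1 without strain. All patch libraries lay above TD. It rose by 1.96 log2 units (SE 0.376, adjusted p = 0.0113) and 3.03 (SE 0.395, adjusted p = 0.00224). Of the 50-base windows of its transcripts, 24.6% also occur in other genes, chiefly Stfa2, and 25.1% of those of BC100530, chiefly in Stfa1 and BC117090, so how reads were divided within this family is uncertain.

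Acod1, the enzyme that makes itaconate in activated myeloid cells (chromosome 14, 103046977 to 103056573), was at 9.05, 10.7, 20.2, 6.18 and 8.42 CPM in TD, 43.5, 213, 56.1 and 92.4 under strain and 61.8, 209.6 and 90.8 without strain. Every patch library lay above every TD library, and strain library 2 and no-strain library 2 were highest. Its log2 fold changes of 3.21 ± 0.542 (SE, adjusted p = 0.00770) and 3.47 ± 0.567 (adjusted p = 0.00399) were the largest of the group in both comparisons. Padi4, the enzyme that citrullinates histones in neutrophil extracellular traps, went the other way. It stood at 21.4, 18.0, 13.7, 16.8 and 16.7 CPM in TD, 4.87, 8.19, 10.8 and 6.13 under strain and 7.38, 10.0 and 7.43 without strain, below TD in all 7 patch libraries. Padi4 fell by 1.20 log2 units (SE 0.217, adjusted p = 0.00900) and by 1.06 (SE 0.238, adjusted p = 0.0132). G0s2, an inhibitor of fat cell lipase that neutrophils also express, had log2 fold changes of -0.48 in both comparisons and passed in neither (adjusted p = 0.283 and 0.313).

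**Figure D4:**
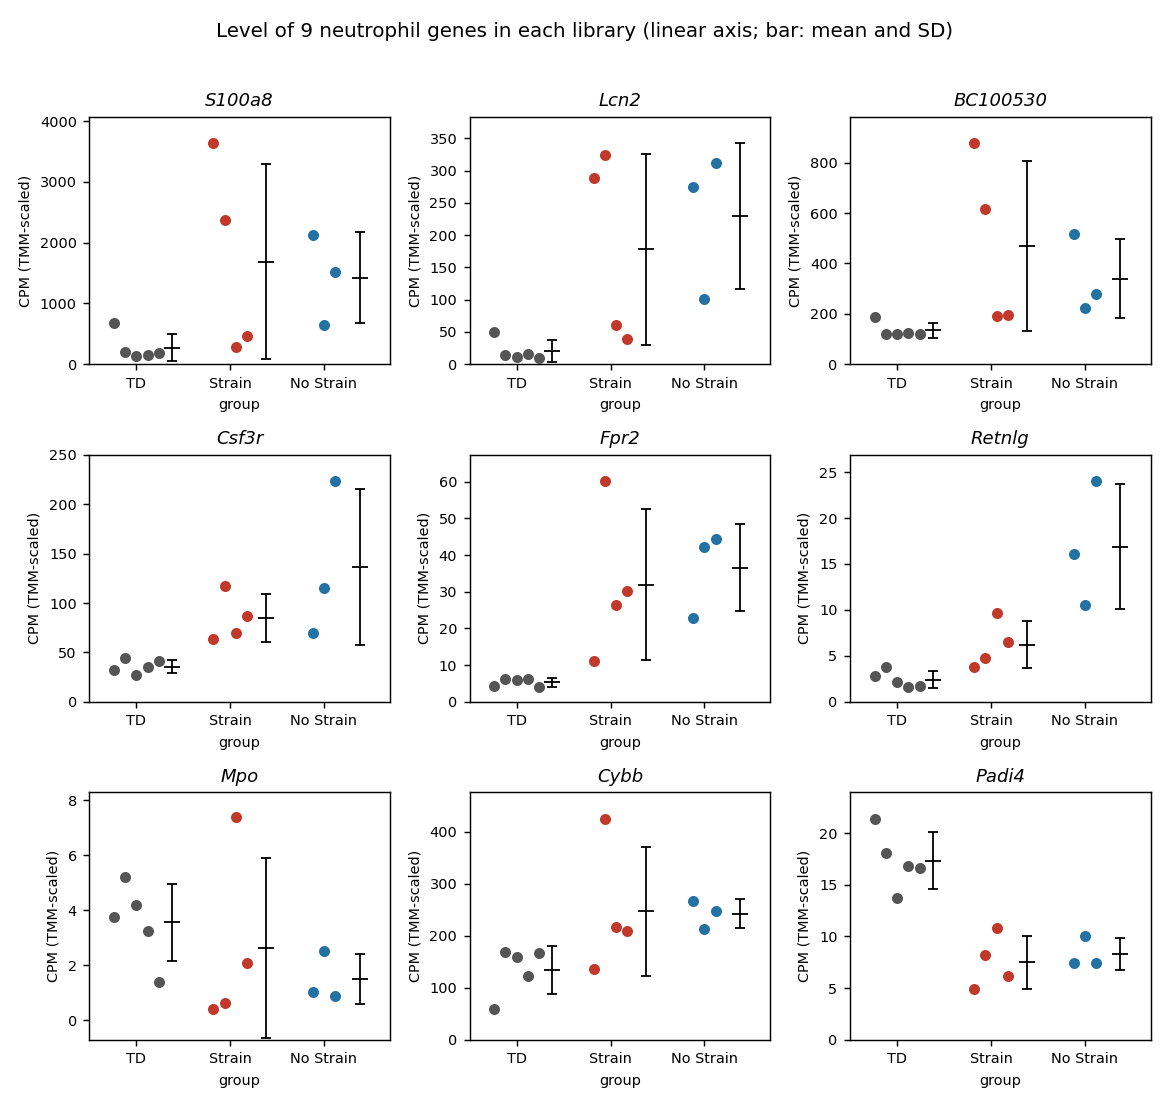
CPM of 9 neutrophil genes in each library (points, linear axis), with the mean and SD of the 5 TD, 4 strain and 3 no-strain libraries beside them. S100a8 splits the strain group into 3634 and 2364 against 284 and 469.5 CPM, Csf3r, Fpr2 and Retnlg lie above TD in every patch library, Mpo is highest in strain library 3 at 7.40 CPM, and Padi4 lies below TD in every patch library.

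Of the surface receptors and adhesion molecules, Ly6g was kept only through the patches. Of the other 10 tested, 8 rose under strain, and without strain 9 rose and 1 fell, with median log2 fold changes of 1.29 and 2.05. Csf3r, the receptor for the granulocyte growth factor G-CSF (chromosome 4, 126024550 to 126044440), stood at 32.05, 44.2, 26.75, 34.9 and 40.95 CPM in TD, 64.0, 118, 69.3 and 87.3 under strain and 69.6, 115 and 223 without strain. Every patch library lay above every TD library. Csf3r rose by 1.24 log2 units (SE 0.300, adjusted p = 0.0243) under strain and 1.93 (SE 0.319, adjusted p = 0.00424) without strain. Fpr2, a receptor for formylated bacterial peptides (chromosome 17, 17887824 to 17893952), was at 4.20, 6.29, 5.94, 6.14 and 3.95 CPM in TD, 11.2, 60.2, 26.4 and 30.1 under strain and 22.9, 42.35 and 44.3 without strain. Again no patch library reached down to TD, with strain library 2 highest and strain library 1 lowest of the patches. Its log2 fold changes were 2.59 ± 0.402 (SE, adjusted p = 0.00582) and 2.78 ± 0.421 (adjusted p = 0.00323). Of the 50-base windows of Fpr2, 31.5% occur in other genes, namely Gm5966, Fpr1 and Fpr3, the last with 2 counts in all. Of those of Csf3r, 10.5% occur in other genes. How reads were divided there is uncertain.

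Ltb4r1, the receptor for the chemoattractant leukotriene B4 (chromosome 14, 55765962 to 55768494), was at 13.1, 9.78, 10.9, 9.89 and 11.0 CPM in TD, 19.3, 19.3, 14.1 and 16.25 under strain and 22.6, 18.2 and 20.9 without strain. The change was smaller than for Fpr2 but the libraries were close together and the groups did not overlap. It rose by 0.66 log2 units (SE 0.121, adjusted p = 0.00965) and 0.91 (SE 0.130, adjusted p = 0.00253). Ly6g, the surface protein by which mouse neutrophils are usually sorted (chromosome 15, 75155240 to 75159126), was scarce, with 5, 3, 1, 0 and 2 counts in TD, 5, 6, 5 and 9 under strain and 13, 14 and 40 without strain. The no-strain libraries lay above all others, and the strain libraries overlapped TD.

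Fpr1, the sister receptor of Fpr2, rose by 2.24 and 2.72 log2 units, from 1.89 to 3.16 CPM in TD to 5.02 to 22.3 CPM across the patches. Trem1 and Trem3, activating receptors of myeloid cells, rose by 1.73 and 1.35 log2 units under strain (adjusted p = 0.0267 and 0.0252), and both rose without strain (adjusted p = 0.00605 and 0.00355). Mcemp1, a membrane protein of myeloid and mast cells, rose by 1.82 and 2.46, and Sorl1, a sorting receptor, by 0.72 and 1.30, where the call for Sorl1 under strain was lost in 16 of 24 alternatives. Selplg, the ligand by which leukocytes roll on selectins, passed without strain (0.79, adjusted p = 0.0227) and not under strain (0.47, adjusted p = 0.118). Olr1, a receptor for oxidised lipoprotein, fell without strain by 0.91 log2 units (adjusted p = 0.0470), a call lost in 13 of 24 alternatives. Itgb2l, an integrin chain, had 6 counts over the TD libraries, 8 under strain and 4 without strain. Other myeloid cells carry several of these receptors: of the 10 monocyte and macrophage genes 2 rose under strain (Ccr2 and Ly6c2) and 3 without strain (Cd14 as well), with list medians of 0.39 and 0.60 log2 units. Their part in the receptor values was not tested.

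Of the 4 oxidase subunits tested, 1 rose in each comparison with TD, Cyba in both, and the median log2 fold changes were 0.59 and 0.82. Cyba, the smaller membrane subunit (chromosome 8, 122424776 to 122432930), was at 79.1, 123, 128, 103 and 149 CPM in TD, 132, 207, 192 and 188 under strain and 214, 197 and 251 without strain. Strain library 1 lay within the TD range and the other patch libraries above it. Cyba rose by 0.63 log2 units (SE 0.177, adjusted p = 0.0412) under strain, a call lost in 16 of 24 alternatives, and by 0.92 (SE 0.190, adjusted p = 0.00988) without strain. Cybb, the catalytic membrane subunit, shared with macrophages (chromosome X, 9435252 to 9487771), was at 59.1, 168, 158, 122 and 166 CPM in TD, 137, 425, 217 and 209.0 under strain and 267, 213 and 247 without strain. TD library 1, which was also lowest in the macrophage list at 1134 CPM, was the lowest of all and strain library 2 the highest. Its log2 fold changes of 0.87 ± 0.337 (SE) and 0.85 ± 0.362 did not pass (adjusted p = 0.110 and 0.127).

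Ncf4, a cytosolic subunit (chromosome 15, 78244801 to 78262580), was at 25.3, 52.0, 46.7, 38.9 and 54.7 CPM in TD, 41.6, 82.4, 69.85 and 61.3 under strain and 62.4, 68.4 and 95.6 without strain. All patch libraries but strain library 1 lay above TD. It passed for the mean of both patch groups (log2 fold change 0.67, SE 0.215, adjusted p = 0.0417) and in neither alone (adjusted p = 0.151 and 0.0546). Ncf1, the subunit that organises the complex, lay between 43.9 and 95.0 CPM in TD and between 61.1 and 125 CPM under the patches, with log2 fold changes of 0.29 and 0.09. The annotated exons of Ncf1 share 408 bases with Gtf2ird2 on the other strand, and reads of the pair cannot be told apart unless counting used the strand, which the sources used here do not give.

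Of the 4 genes for secreted proteins and a transcription factor, 1 rose under strain, and 1 rose and 1 fell without strain. Retnlg, a resistin-like secreted protein of neutrophils (chromosome 16, 48872621 to 48874496), stood at 2.84, 3.74, 2.19, 1.57 and 1.71 CPM in TD, 3.83, 4.77, 9.69 and 6.57 under strain and 16.1, 10.55 and 24.0 without strain. The groups formed 3 steps with no overlap, with TD lowest and no strain highest. Retnlg rose by 1.37 log2 units (SE 0.344, adjusted p = 0.0281) under strain and 2.81 (SE 0.362, adjusted p = 0.00220) without strain. Its call under strain was lost in 12 of 24 alternatives. Wfdc21, a small protein with a WAP domain (chromosome 11, 83746940 to 83752642), was at 15.1, 12.6, 18.1, 15.4 and 12.8 CPM in TD, 9.59, 9.27, 11.3 and 14.8 under strain and 7.29, 11.0 and 7.34 without strain. The no-strain libraries lay below TD and strain library 4 within it. Wfdc21 fell without strain by 0.79 log2 units (SE 0.197, adjusted p = 0.0203) and did not pass under strain (-0.40, adjusted p = 0.159).

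Lrg1, a secreted glycoprotein also made by vessels and liver, had log2 fold changes of 0.11 and 0.27 and did not pass (adjusted p = 0.767 and 0.463). Cebpe, the transcription factor that drives late granule genes in the marrow (chromosome 14, 54710360 to 54712174), was at 0.617, 0.698, 0.319, 0.606 and 0.877 CPM in TD, 0.497, 0.630, 0.467 and 1.20 under strain and 0.495, 0.987 and 0.697 without strain. Its 3 groups overlapped fully, and its log2 fold changes of 0.16 and 0.23 (SE 0.360 and 0.387) were smaller than their errors.

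Strain and no strain were then compared directly, to set the induced strain apart from the wearing of a patch. None of the 38 genes passed by edgeR's quasi-likelihood test with Benjamini-Hochberg adjustment (0 of 18618 genes, 0%), and DESeq2 also called 0 of them, beside 33 genes in all. At an unadjusted p under 0.05 there were 6 of the 38, against 5.61% of all genes: Retnlg, Ly6g, Stfa2l1, Slpi, Trem3 and Sorl1. All 6 were lower under strain, with an adjusted p of 0.872. Among the 34 genes not kept only through the patches, 5 had an unadjusted p under 0.05. Retnlg had a log2 fold change of -1.44 ± 0.372 (SE, unadjusted p = 0.00247), and its 4 strain libraries, at 3.83 to 9.69 CPM, lay below its 3 no-strain libraries, at 10.55 to 24.0 CPM. Ly6g, kept in the test only through its no-strain libraries, had 5 to 9 counts under strain and 13 to 40 without strain. These were the only 2 of the 38 with every strain library below every no-strain library, where 2.77% of all genes did so, and none had every strain library above, where 2.85% did. Among the 34, Retnlg alone lay below and 0 lay above. Stfa2l1 had -1.06, Slpi -0.85, Trem3 -0.82 and Sorl1 -0.58, with groups that overlapped. S100a8 had 0.25 ± 0.844, and the median was -0.25 for the 38 genes and -0.26 for the 34, beside 0.0084 over all genes.

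Ratios of pairs of genes within a library need no scaling between libraries. The log2 ratio of Csf3r to Csf1r, the growth factor receptor of macrophages, was -2.59, -3.43, -3.55, -3.30 and -3.60 in TD, -2.52, -1.94, -2.52 and -2.03 under strain and -2.47, -1.69 and -1.13 without strain. TD library 1 lay close to the lowest patch libraries, and the other TD libraries well below them. The ratio was higher than in TD by 1.04 under strain (two-sided exact permutation test, p = 0.0159, adjusted over 9 tests 0.0536) and by 1.53 without strain (exact p = 0.0179, the smallest possible, adjusted 0.0536). The ratio of Cybb to Csf1r was higher by 0.66 (exact p = 0.0476, adjusted 0.0714) and 0.68 (exact p = 0.0357, adjusted 0.0714).

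The log2 ratio of S100a8 to Krt6a, a keratin of activated keratinocytes, was -0.16, -1.65, -1.93, -2.05 and -1.89 in TD, 1.17, 1.44, -1.16 and -0.41 under strain and 0.26, 0.10 and 0.76 without strain. Strain libraries 3 and 4 overlapped TD library 1, and the no-strain libraries lay above all of TD. The differences from TD were 1.80 (exact p = 0.0397, adjusted 0.0714) and 1.91 (exact p = 0.0179, the smallest possible, adjusted 0.0536). Between strain and no strain the 3 ratios differed by -0.49, -0.01 and -0.11 (exact p = 0.257, 1 and 0.886). None of the 9 tests passed 0.05 after adjustment.

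Genes around the 40 were read from lists of the same pathways. Of 19 other neutrophil genes, 13 rose and 1 fell (Ifitm6) under strain, and 13 rose and 0 fell without strain, with median log2 fold changes of 1.38 and 1.84. Mrgpra2a was kept only through the patches, and without it 13 and 12 of 18 rose. Mmp8, the neutrophil collagenase, stood at 3.13, 3.57, 7.02, 3.19 and 2.72 CPM in TD, 17.4, 19.4, 13.4 and 18.4 under strain and 17.4, 66.4 and 48.5 without strain, above TD in every patch library. Mmp8 rose by 2.12 log2 units (adjusted p = 0.00856) and 3.48 (adjusted p = 0.00111). Hdc, the histamine-forming enzyme, rose by 1.32 (adjusted p = 0.0137) and 2.07 (adjusted p = 0.00249), from 14.6 to 27.4 CPM in TD to 37.8 to 107 CPM across the patches. Of 8 other oxidase genes tested, 0 passed under strain, where 1 did at an unadjusted p under 0.05, beside 29.5% of all genes. Hvcn1, the proton channel that sustains the oxidase, rose without strain by 0.90 log2 units (adjusted p = 0.0395).

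Of 19 genes for neutrophil production and recruitment, 7 rose and 1 fell under strain, and 11 rose and 1 fell without strain, with medians of 0.72 and 1.42. Csf3, Csf2 and Il17a were kept in the test only through the patches, and of the other 16, 5 and 8 rose, with medians of 0.63 and 0.98. The gene that fell was Alox5, the first enzyme of leukotriene synthesis, at -0.98 and -0.99 log2 units (adjusted p = 0.0192 and 0.0202). Il1a, an alarm cytokine, stood at 2.46 to 5.59 CPM in TD, 13.8, 11.9, 7.32 and 10.2 under strain and 25.2, 23.7 and 18.2 without strain, in 3 steps with no overlap. It rose by 1.51 log2 units (adjusted p = 0.00539) and 2.56 (adjusted p = 0.000439). Csf3, which encodes G-CSF, the ligand of Csf3r, had 17, 3, 6, 5 and 1 counts in TD, 94, 96, 29 and 97 under strain and 93, 195 and 513 without strain. All patch libraries lay above TD. Of 6 granulocyte transcription factors, 0 passed in either comparison. At an unadjusted p under 0.05, 1 and 3 did, beside 29.5% and 33.5% of all genes. Cebpb, which drives emergency granulocyte production, passed for both patch groups together (0.61, adjusted p = 0.0335), and Spi1, which encodes PU.1, did not (0.46, adjusted p = 0.108).

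**Figure D5:**
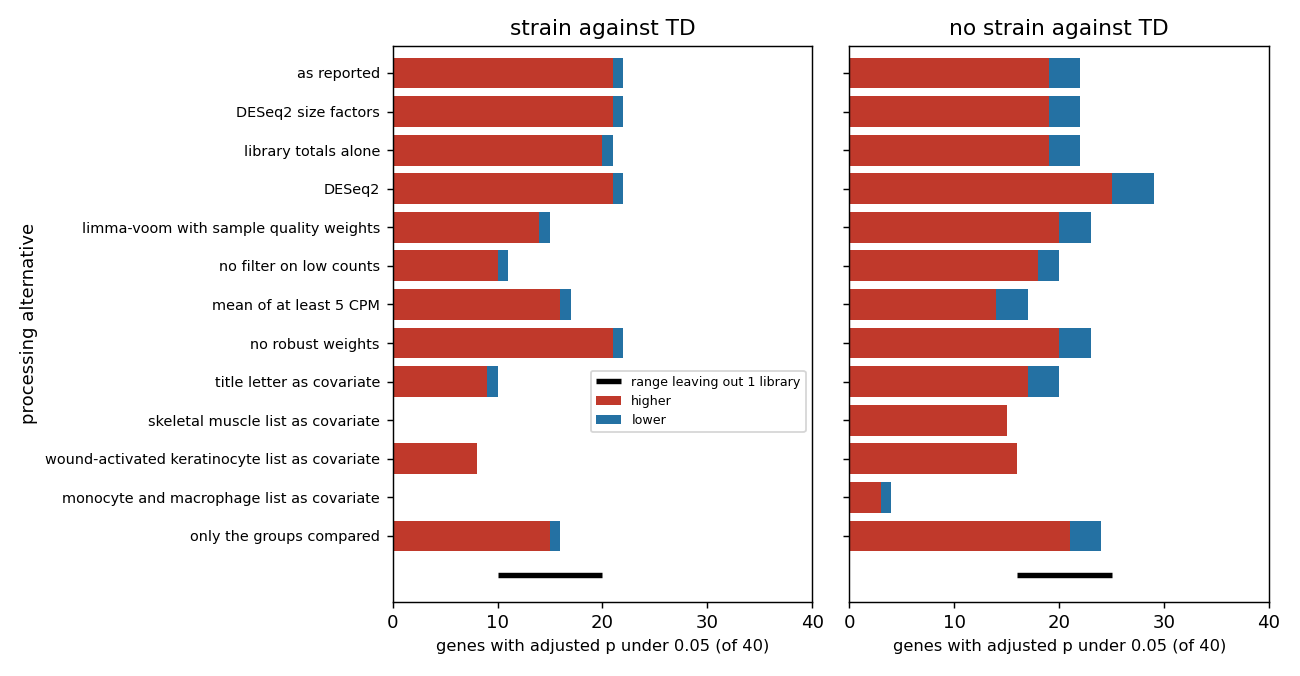
Number of neutrophil genes with an adjusted p under 0.05 (horizontal axis) against TD under each processing alternative, with red for higher, blue for lower and a black line for the range when 1 library is left out. The count for strain falls from 22 to 0 with the skeletal muscle or macrophage list as a covariate, and that for no strain from 22 to 4 with the macrophage list, while fold changes such as those of Fpr2 under strain (3.02 and 1.76) stayed above 0.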

How the data were processed

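Per the labels' protocols, messenger RNA was enriched from frozen wound tissue on oligo(dT) beads before Illumina library preparation. The deposited values are raw counts, per the file headers, of the reads on each gene in 1 library. The submitters' processing notes name the build GRCm38 and the tools bcl2fastq 2.17, FastQC, cutadapt, STAR, featureCounts and DESeq2, without saying which step each was used for. The strand setting and the treatment of reads that match several genes are not given in the sources used here.

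Symbols, gene positions and exon lengths came from GENCODE M21 (GRCm38), which matched 54165 of 54232 identifiers. Genes were filtered with filterByExpr (minimum count 10, minimum total 15) and fitted in edgeR 4.0.16 (R 4.3.3) with TMM scaling and a robust quasi-likelihood test over all 12 libraries. Over the 18618 genes, p-values took the Benjamini-Hochberg adjustment, with a threshold of 0.05. Standard errors were derived from the log2 fold change and its F statistic. CPM were computed from the counts, and log2 CPM use a prior count of 2. Ratios add 0.5 to each count. The script was tested on simulated data. No pair of libraries within a group agreed within sampling noise (chi-square per degree of freedom 9.53 to 75.0 over 19 pairs).

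Genes given with every library were S100a8, S100a9, Csf3r, Ly6g, Mpo, Elane, Cybb, Cebpe and the 2 of each role group with the smallest p across the 3 groups. Lcn2, BC100530, Padi4, Ngp and Camp were added after their values were seen. From each related list the 2 genes with the smallest p for both patch groups were named, except 1 that is not reported here. Genes that fell in those lists, and the marker genes that passed, were also named after their values were seen. The genes and lists were chosen with earlier results of these data known. Alternatives were DESeq2 1.42.0 and its size factors, library totals, limma-voom (limma 3.58.1) with sample weights, no filter, a mean of at least 5 CPM, no robust weights, only the groups compared, the title letter or the muscle list as a covariate, and leaving out each library. Covariates for the keratinocyte and macrophage lists, and totals without genes kept only through the patch libraries, were added after seeing the data.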

Additional observations from a re-analysis of the deposited data

Results flagged for a closer look

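In groups of 4 or 5 libraries, the gap between the most extreme library and its neighbour exceeded Dixon's critical value for 8 of 86 group values, where chance gives about 4.3. In TD, library 1 was the highest for S100a8 at a log2 CPM of 9.39 (next 7.64), for BC100530 at 7.54 (next 6.97) and for the log2 ratio of S100a8 to Krt6a at -0.16 (next -1.65). TD library 4 was the lowest for Pglyrp1 at a log2 CPM of 0.80 (next 1.19). In the strain group, library 3 was the highest for Ctsg at 2.48 (next 1.71) and the lowest for Slpi at 5.09 (next 6.19). Strain library 2 was the highest for Olr1 at 3.38 (next 2.55) and for Sorl1 at 5.86 (next 5.32).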

How the results depend on the processing

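No paired analysis was run because no title number in the labels is shared between groups. Between strain and no strain, 0 of the 38 tested genes passed under every alternative run. For strain against TD the 22 calls became 11 without a filter on low counts, 10 with the title letter as a covariate, 0 with the skeletal muscle list, 8 with the keratinocyte list and 0 with the macrophage list, and 10 to 20 when 1 library was left out. Among calls under strain, Trem1 was lost in 12 of 24 alternatives, BC100530 in 10, Slpi in 9, Csf3r in 8 and Lcn2 in 7. Trem3 was lost in 7 of 23. For no strain against TD the 22 became 4 with the macrophage list, and 16 to 25 with 1 library left out. For both patch groups the 28 became 1 with the muscle list, 17 with the keratinocyte list and 5 with the macrophage list, and 22 to 28 with 1 library left out. A fit on only the groups compared was not run for both patch groups, where it is the same fit. Of all 18618 genes, 1 passed for strain with the muscle list and 80 with the macrophage list. The cause was not tested. TD libraries carry the title numbers 1 to 6 and patch libraries 7 to 15. What these mark is not stated, and an effect of that order cannot be told apart from the dressing. The title letter was L in TD library 1, strain libraries 1, 2 and 4 and no-strain libraries 2 and 3, and R in the rest. What the letter marks is not stated either, and its uneven split means that its effect is partly mixed with that of the dressing.

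Log2 fold changes that turned sign had not passed the test. For strain against TD these were, with the macrophage list, Prtn3 -0.22, G0s2 0.020, Selplg -0.016, Ncf1 -0.40, Ncf4 -0.11, Cybb -0.10 and Lrg1 -0.048; with the keratinocyte list, Mpo 0.23 and Chil1 -0.67; with the muscle list, Mpo 1.08 and Cebpe -0.90; and with the title letter, Cebpe -0.11. For no strain against TD they were, with the macrophage list, G0s2 0.079, Ncf1 -0.73 and Cybb -0.19; with the keratinocyte list, Mpo 0.14 and Chil1 -0.47; with the muscle list, Cebpe -0.32; and with the title letter, Cebpe -0.019. For strain against no strain, S100a8 was -0.29 by limma-voom, -0.42 with the title letter and -0.019 with the muscle list. With 1 library left out, S100a8 ranged from -0.45 to 0.64 there. Against TD, Prtn3 ranged from -0.34 to 0.23 under strain and -0.16 to 0.88 without, Cebpe from -0.23 to 0.31 and -0.0661 to 0.44, Ncf1 without strain from -0.11 to 0.21 and Lrg1 without strain from -0.18 to 0.48.

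With 1 library left out, the log2 ratio of Csf3r to Csf1r ranged from 0.94 to 1.22 for strain against TD and 1.21 to 1.88 for no strain against TD. That of Cybb to Csf1r ranged from 0.43 to 0.88 for strain against TD and -0.25 to 0.20 for strain against no strain. That of S100a8 to Krt6a ranged from 1.72 to 2.25 for no strain against TD and -0.51 to 0.36 for strain against no strain. At these depths the genes under about 1 CPM, among them Elane, Camp, Ngp, Ly6g and Itgb2l, rest on few counts.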
